A study of Homo sapiens
Mus musculus and Mus musculus and Homo sapiens with 16 samples.

Results

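The nuclear genes for the subunits of the oxidative phosphorylation complexes were followed in REC-1, a human mantle cell lymphoma line, in monoculture and in coculture with MS-5, a mouse bone marrow stromal line. The 89 members were taken from the 58051 human genes of the count table as protein-coding genes whose symbols name subunits of complex I (36 genes), complex II (4), complex III (10), complex IV (19) and complex V (20). The naming rule uses no measured value, but the group of genes was picked with earlier results of these data known. The members hold no gene of the mitochondrial genome and no assembly factor, apart from ATP5S and ATP5SL, which match by name but are now called DMAC2L and DMAC2. Of the 89 members, 81 had enough counts to be tested, beside 12861 genes in all.

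The complexes sit in the inner mitochondrial membrane. Complex I oxidizes NADH, complex II oxidizes succinate, complex III passes the electrons to cytochrome c and complex IV passes them to oxygen. Complexes I, III and IV pump protons, and complex V, the ATP synthase, uses the gradient to make ATP. All complexes but the second combine subunits imported from the cytosol with subunits made inside the mitochondrion, and B cell lines, like other proliferating cells, express the housekeeping forms of the subunits rather than those of muscle or testis.

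RNA was sequenced from 3 fractions of REC-1, each with 4 libraries: cells grown alone (Sep), cells recovered from the suspension of the coculture (Susp) and cells adhered to MS-5 (Adh). Coculture lasted 24 h. The study kept lymphoma lines in RPMI medium, and cocultures under the conditions of MS-5 cells, which were kept in αMEM. It does not state the medium of the sequenced monocultures. Effects of medium and of coculture therefore cannot be told apart. REC-1 is 1 cell line. The study calls its replicates independent experiments, but the labels do not say what a replicate number marks, so p-values measure the spread between these libraries. RNA of Adh cells was extracted together with that of MS-5 cells, and the human share was obtained by sorting read pairs by species, so that effects of this step and of adhesion cannot be told apart. Between 7758979 and 21467832 human fragments were counted per library. The libraries are bulk RNA scaled to a common total, in which fewer cells of a type and less RNA per cell cannot be told apart, and all values are relative to that total.

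Susp replicate 2 stood apart. In chi-square comparisons of counts, pairs with Susp replicate 2 gave 52.8 to 57.4 per degree of freedom against 4.19 to 20.8 for all other pairs within a group, and the counts and medians of the members that rest on it are given with and without it. All 7 B cell markers looked at and both markers of mantle cell lymphoma, CCND1 and SOX11, had enough counts to be tested, and 0 of the 9 changed 1.5-fold or more with an adjusted p of at most 0.05 in any comparison. Of all tested genes 0.731% (Susp against Sep), 0.778% (Adh against Susp) and 2.40% (Adh against Sep) did so. With shares this low, 0 of 9 does not show that the markers were stable. At that p and any fold, CD79B (log2 fold change 0.55 ± 0.12, adjusted p = 0.031, edgeR) and CD22 (0.43 ± 0.09, adjusted p = 0.0236, edgeR) were higher in Susp than in Sep cells, and CD22 was higher in Adh than in Sep cells (0.39 ± 0.09, adjusted p = 0.025, edgeR). The median of the 7 B cell markers was 0.27 in Susp against Sep cells, or 0.13 without Susp replicate 2, and 0.07 in Adh against Sep cells. The 13 stroma markers summed to 6.53 to 8.50 CPM (counts per 1000000 counts of a library, after TMM scaling) in Susp libraries, 6.30 to 10.4 CPM in Sep libraries and 7.22 to 9.25 CPM in Adh libraries. For the 9 stroma genes with at least 1000 mouse counts in an Adh library, the human count was at most 0.132% of the mouse count. Mouse counts of the members themselves were a median of 3.28 times their human counts in Adh libraries (78 members matched by symbol), so that at this highest percentage a typical member would hold 0.433% of its human counts from mouse reads. The ratios ran from 0.255 to 549. At the highest ratio, that of NDUFV2, this upper limit would make mouse reads a large part of its human counts. The actual share of mouse reads was not measured.

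REC-1 cells from both coculture fractions had slightly more RNA for these subunits than REC-1 cells grown alone. The mean log2 CPM of the 81 tested members was 5.86 ± 0.03 in Sep, 6.12 ± 0.23 in Susp and 6.07 ± 0.05 in Adh cells (SD, n = 4). The 4 Sep libraries lay between 5.82 and 5.89, the Adh libraries between 6.01 and 6.14 and the Susp libraries between 5.98 and 6.46. Neither coculture fraction overlapped with Sep. The highest Susp value belonged to replicate 2, and the other 3 Susp libraries lay between 5.98 and 6.03, with a mean of 6.00 ± 0.03 (SD, n = 3). The same order of Sep below the other 2 fractions was read in complexes III, IV and V, where no Sep library reached a Susp or an Adh library. In complex I the lowest Adh library (5.12) lay within the range of Sep (5.03 to 5.13), and in complex II the lowest Susp library (7.18) lay just under the highest Sep library (7.19).

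**Figure D1:**
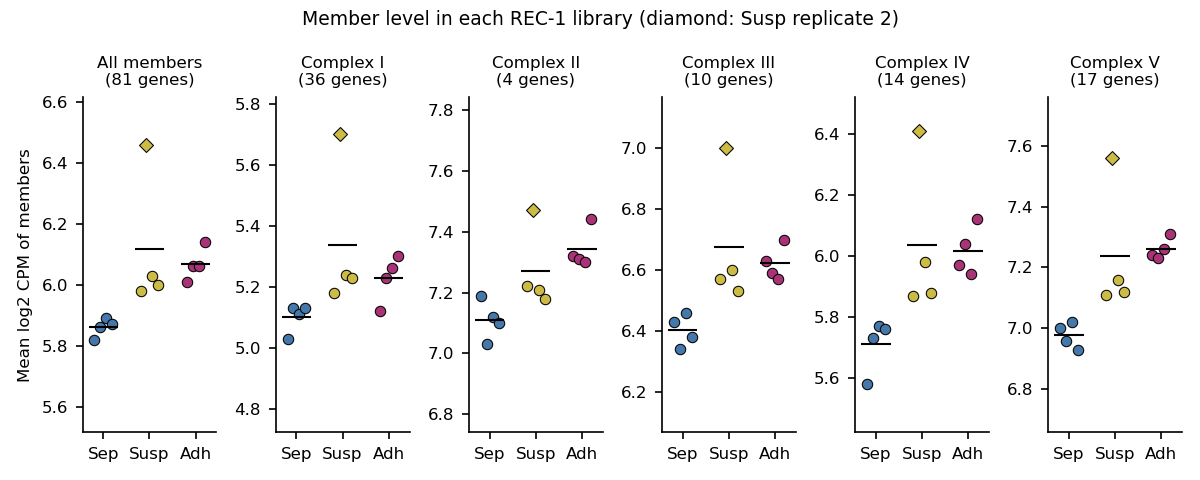
Each point is 1 library, and its height is the mean log2 CPM of the tested members of all complexes or of 1 complex, with group means as lines and each vertical axis spanning 1.1 log2 units. All Susp and Adh libraries lie above all Sep libraries over the 81 members, and Susp replicate 2, drawn as a diamond, is the highest library in every panel.

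For Adh against Sep cells the median log2 fold change over the 81 members was 0.26, or 1.19-fold higher, while the median over all tested genes was 0.00. Of the members, 74 were above 0 (91.4%), against 49.5% of all tested genes. In 33 members every Adh library was higher than every Sep library, against 7.42% of all tested genes, and in 1 member every Adh library was lower, against 8.3%. The differences were small: 0 members reached a 1.5-fold change with an adjusted p of at most 0.05 in edgeR's quasi-likelihood test (2.40% of all tested genes did), and 38 had an unadjusted p under 0.05, of which 36 were higher in Adh cells (9.23% of all tested genes). At an adjusted p of at most 0.05 with no minimum on the fold, 5 members rose in Adh cells and 0 fell (3.41% of all tested genes passed in either direction, 1.11% upward). DESeq2 passed 12 on the same rule (7.57%). The count of 5 rested on single libraries: 31 members passed without Susp replicate 2, all upward (11.9% of all tested genes passed in either direction, 5.51% upward), while the median stayed at 0.26. It was 9 without Sep replicate 1, 3 without Susp replicate 1 or 4, 2 without Susp replicate 3, 1 without Sep replicate 3 or 4 or Adh replicate 1, 2 or 3, and 0 without Sep replicate 2 or Adh replicate 4. A fit of the 8 Adh and Sep libraries alone passed 23 of 80 tested members (8.22% of all tested genes). With replicate number as a term in the model of all libraries, 9 passed (5.65%).

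The ATP synthase had the highest median of the complexes and, in edgeR with all libraries, 4 of the 5 members that passed. Differences between complexes were not tested. The 5 were abundant, with Sep means from 233 to 2712 CPM. NDUFA2, at a Sep mean of 26.3 CPM, had a larger log2 fold change (0.44) and did not pass. In complex V the median log2 fold change was 0.32, and 4 of 17 tested members passed, or 10 of 17 without Susp replicate 2. With the GC and length correction described below, 13 of 17 passed (15.5% of all tested genes), and members of every other complex passed as well. ATP5B (ENSG00000110955, now ATP5F1B; GRCh38 chr12:56638175-56645984, minus strand), which encodes the catalytic beta subunit, was the most abundant member. It was read at 2745, 2630, 2686 and 2785 CPM in Sep, at 2950, 3589, 3330 and 3152 CPM in Susp and at 3264, 3448, 3401 and 3531 CPM in Adh libraries. Every library of both coculture fractions was above every Sep library. Its log2 fold change was 0.33 ± 0.07 (SE) in Adh against Sep cells (adjusted p = 0.0136, edgeR) and 0.26 ± 0.07 in Susp against Sep cells (adjusted p = 0.083, edgeR).

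ATP5A1 (ENSG00000152234, now ATP5F1A; chr18:46080248-46104334, minus strand), the alpha subunit that alternates with beta in the head of the enzyme, was read at 896, 832, 851 and 865 CPM in Sep, at 938, 1102, 1010 and 972 CPM in Susp and at 1027, 999, 1044 and 1062 CPM in Adh libraries. Its Adh libraries were all above its Sep libraries, with a log2 fold change of 0.26 ± 0.07 (adjusted p = 0.047, edgeR). ATP5C1 (ENSG00000165629, now ATP5F1C; chr10:7788147-7807815, plus strand) encodes gamma, the rotating central stalk. Its values were 264, 223, 233 and 211 CPM in Sep, 258, 313, 245 and 246 CPM in Susp and 312, 290, 322 and 303 CPM in Adh libraries, and its log2 fold change in Adh against Sep cells was 0.40 ± 0.10 (adjusted p = 0.03, edgeR). The Susp libraries overlapped with both other fractions.

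ATP5F1 (ENSG00000116459, now ATP5PB; chr1:111448864-111462773, plus strand), subunit b of the outer stalk, was read at 291, 238, 252 and 243 CPM in Sep and at 337, 312, 331 and 331 CPM in Adh libraries, with 296, 339, 275 and 274 CPM in Susp. All Adh libraries were above all Sep libraries, and its log2 fold change was 0.36 ± 0.09 (adjusted p = 0.0376, edgeR). ATP5O, the subunit that joins the outer stalk to the head, had 1 of the 4 largest positive values in Adh against Sep cells, 0.40 ± 0.13, which did not pass (adjusted p = 0.104, edgeR), although its Adh libraries, at 58.8 to 74.3 CPM, did not overlap with its Sep libraries, at 46.1 to 54.2 CPM. At the other end ATP5S, which is not a structural subunit, was level, at 31.9 to 35.8 CPM in Sep and 31.9 to 37.6 CPM in Adh libraries (log2 fold change 0.00 ± 0.10, adjusted p = 0.999, edgeR).

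**Figure D2:**
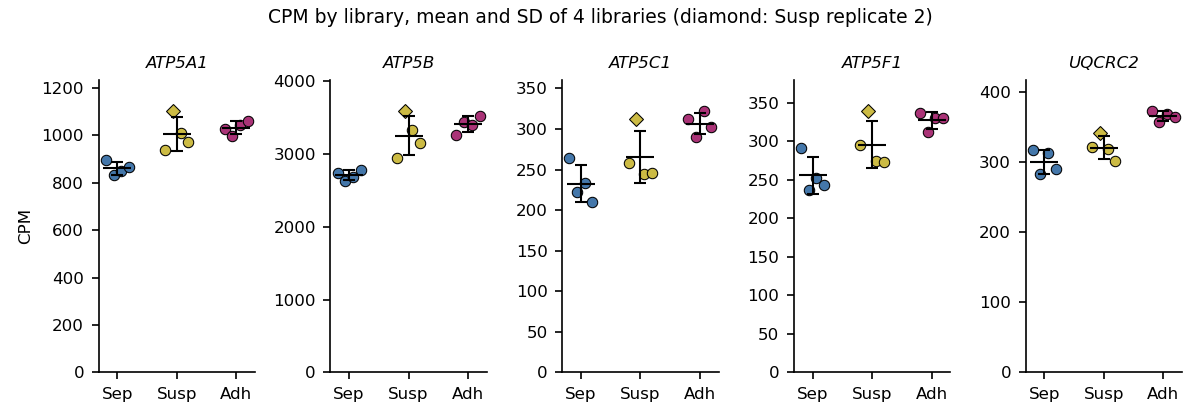
The vertical axes give CPM from 0, each point is 1 of 4 libraries of a fraction, and bars are the mean and SD. For each of the 5 members that passed an adjusted p of 0.05 between Adh and Sep cells, all 4 Adh points lie above all 4 Sep points, and the diamond is Susp replicate 2.

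The start regions of 4 members are printed because they show the motif content found: a match for an ETS factor in COX4I1, no match in ATP5B, a match for NRF1 in ATP5C1, and matches for 3 factors in SDHB. They were chosen after the values were seen. Each runs from 250 bases before to 50 bases after the start of the canonical transcript, 5′ to 3′ on the strand of the gene, read from GRCh38, with motif matches in capitals. The regions are chr16:85799445-85799744 for COX4I1, chr12:56645935-56646234 for ATP5B, chr10:7787927-7788226 for ATP5C1 and chr1:17053983-17054282 for SDHB.
COX4I1: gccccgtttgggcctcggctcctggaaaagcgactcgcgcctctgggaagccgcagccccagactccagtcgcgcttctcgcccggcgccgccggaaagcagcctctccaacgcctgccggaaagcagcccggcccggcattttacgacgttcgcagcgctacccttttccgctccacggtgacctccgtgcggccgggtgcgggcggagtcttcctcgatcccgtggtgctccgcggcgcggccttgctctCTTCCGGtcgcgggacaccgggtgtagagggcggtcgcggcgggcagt
ATP5B: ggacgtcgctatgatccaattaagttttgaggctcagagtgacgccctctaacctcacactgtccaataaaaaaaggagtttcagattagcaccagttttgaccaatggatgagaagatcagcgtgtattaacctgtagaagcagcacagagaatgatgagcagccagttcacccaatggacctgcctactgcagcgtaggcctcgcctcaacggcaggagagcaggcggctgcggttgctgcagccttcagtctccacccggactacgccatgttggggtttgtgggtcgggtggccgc
ATP5C1: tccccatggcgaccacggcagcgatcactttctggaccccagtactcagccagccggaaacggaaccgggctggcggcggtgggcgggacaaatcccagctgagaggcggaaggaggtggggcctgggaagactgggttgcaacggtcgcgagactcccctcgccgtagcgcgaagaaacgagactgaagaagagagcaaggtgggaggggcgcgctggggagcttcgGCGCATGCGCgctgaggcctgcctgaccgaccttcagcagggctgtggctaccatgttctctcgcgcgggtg
SDHB: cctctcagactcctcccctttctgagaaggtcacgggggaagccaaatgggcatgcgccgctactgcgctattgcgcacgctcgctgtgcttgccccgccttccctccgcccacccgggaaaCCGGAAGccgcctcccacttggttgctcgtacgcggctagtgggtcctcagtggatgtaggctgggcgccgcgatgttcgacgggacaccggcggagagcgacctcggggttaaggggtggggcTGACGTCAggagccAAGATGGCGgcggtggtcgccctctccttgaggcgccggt
In COX4I1 the capitals mark CCGGAAG, the core bound by ETS factors including GABP, here on the opposite strand, and in ATP5C1 they mark GCGCANGCG, most of the NRF1 site. In SDHB they mark, in order, CCGGAAG, TGACGTCA of the CREB family and AAGATGGCG of YY1. NRF1, GABP and YY1 are known as regulators of many subunit genes.

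Over the 88 members whose start could be placed, 54 held at least 1 of the 4 motifs, searched on both strands, and 10 held 2 or more kinds. NRF1 matches were found in 25 members (28.4%, against 11% of 19629 promoters of the same length), ETS matches in 24 (27.3%, against 14.1%), YY1 matches in 12 (13.6%, against 2.87%) and CREB matches in 5 (5.68%, against 2.7%). A match is a stretch of letters and not a measured site. In Adh against Sep cells the median log2 fold change of the tested members with an ETS match was 0.29 (24 members) and that of those without was 0.21 (57 members). The corresponding medians were 0.27 (24 members) and 0.25 (57 members) with and without NRF1, 0.18 (12 members) and 0.26 (69 members) with and without YY1, and 0.29 (5 members) and 0.25 (76 members) with and without CREB. Whether a motif match bears on these changes was not tested.

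In complex III, 1 of 10 members passed between Adh and Sep cells, and 4 of 10 without Susp replicate 2. Their median was 0.26 on the log2 scale. UQCRC2 (ENSG00000140740; chr16:21953288-21983660, plus strand), a core protein of the matrix side, was read at 318, 283, 313 and 290 CPM in Sep, 322, 342, 318 and 302 CPM in Susp and 373, 357, 369 and 365 CPM in Adh libraries. Its Adh libraries were above all libraries of both other fractions, with a log2 fold change of 0.28 ± 0.07 against Sep (adjusted p = 0.0429, edgeR) and 0.19 ± 0.07 against Susp (adjusted p = 0.2, edgeR). UQCRFS1, the Rieske iron-sulfur protein, was read at 121, 105, 112 and 112 CPM in Sep, 125, 190, 138 and 127 CPM in Susp and 157, 140, 133 and 151 CPM in Adh libraries, so that both coculture fractions lay above Sep. Its log2 fold change in Adh against Sep cells was 0.37 ± 0.12 (adjusted p = 0.0942, edgeR). CYC1, the heme-bearing cytochrome c1, overlapped between Sep (332 to 410 CPM) and Adh (369 to 471 CPM) libraries, at 0.22 ± 0.12. UQCR11, a small peripheral subunit, was among the lowest members, at 22.9 to 29.3 CPM in Sep and 22.6 to 29.3 CPM in Adh libraries.

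In complex IV, 0 of 14 tested members passed an adjusted p of 0.05 between Adh and Sep cells, and 6 did without Susp replicate 2. The median log2 fold change was 0.28. COX6B1, which joins the monomers of the dimer on their outer face, was read at 83.5, 81.9, 77.7 and 79.7 CPM in Sep and at 99.4, 105, 111 and 108 CPM in Adh libraries, with no overlap (log2 fold change 0.39 ± 0.12, adjusted p = 0.0762, edgeR). Without Susp replicate 2 it passed at 0.39 ± 0.07 (adjusted p = 0.00145, edgeR). COX4I1, a regulatory subunit, was read at 124, 126, 139 and 134 CPM in Sep and at 155, 163, 166 and 170 CPM in Adh libraries, again with no overlap (0.33 ± 0.12, adjusted p = 0.129, edgeR), and it too passed without that library (0.33 ± 0.06, adjusted p = 0.00281, edgeR).

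Complex II has only nuclear subunits, and the median of its 4 members in Adh against Sep cells was 0.24 on the log2 scale. Of these, 2, SDHB and SDHD, passed without Susp replicate 2. SDHB, the iron-sulfur subunit, was read at 189, 172, 191 and 175 CPM in Sep, 198, 262, 206 and 199 CPM in Susp and 229, 215, 204 and 239 CPM in Adh libraries. No library of either coculture fraction was as low as a Sep library (Adh against Sep 0.29 ± 0.10, adjusted p = 0.111, edgeR). SDHA, the flavoprotein, overlapped between Sep (212 to 243 CPM) and Adh (222 to 298 CPM) libraries, at 0.19 ± 0.10. SDHD, a membrane anchor, was at 108 to 135 CPM in Sep and 136 to 168 CPM in Adh libraries, at 0.35 ± 0.11 (adjusted p = 0.0864, edgeR).

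Complex I had the lowest median of the complexes in Adh against Sep cells, 0.20 over 36 members, with 30 of them above 0. It was not the lowest with the GC and length correction described below. The medians were then 0.27 in complex I, 0.26 in II, 0.27 in III, 0.28 in IV and 0.34 in V. With the correction 16 of 36 members of complex I passed (15.5% of all tested genes). Differences between complexes were not tested. Without the correction, 0 of 36 passed with all 12 libraries and 9 did without Susp replicate 2. These 9 were NDUFA1, NDUFA2, NDUFA6, NDUFA8, NDUFA12, NDUFB3, NDUFB5, NDUFB9 and NDUFS5, which are accessory subunits without redox cofactors. NDUFA2 had the largest value of the members at 10 CPM or more, 0.44 ± 0.16 (adjusted p = 0.13, edgeR), from 20.7, 29.5, 28.5 and 26.6 CPM in Sep and 29.5, 34.9, 38.9 and 40.0 CPM in Adh libraries, which met without crossing. NDUFB5 was at 59.4 to 71.6 CPM in Sep and 77.1 to 94.2 CPM in Adh libraries (0.42 ± 0.13), and NDUFB3 at 23.3 to 27.9 CPM and 30.0 to 41.6 CPM (0.42 ± 0.14).

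Of the core subunits of complex I that carry flavin or iron-sulfur clusters, none of those named here passed with all libraries or without Susp replicate 2. With the GC and length correction described below, NDUFS1 passed (0.27, adjusted p = 0.0251, edgeR). NDUFV1 and NDUFS7 did not (adjusted p = 0.1 and 0.667, edgeR). NDUFS1, the largest of them, was at 108 to 124 CPM in Sep and 113 to 141 CPM in Adh libraries (0.12 ± 0.11). NDUFV1, which binds the flavin, was at 72.2 to 101 CPM and 83.4 to 111 CPM (0.09 ± 0.14). NDUFS7, which carries the last iron-sulfur cluster before quinone, was read at 16.8, 41.9, 34.7 and 51.1 CPM in Sep, 26.5, 59.8, 48.3 and 48.8 CPM in Susp and 16.7, 42.2, 32.2 and 51.1 CPM in Adh libraries. Replicate 1 was the lowest library in every fraction, and Adh and Sep values were alike (log2 fold change -0.04 ± 0.33, adjusted p = 0.967, edgeR). NDUFV2, a core iron-sulfur subunit with few counts, chosen after its values were seen, had one of the most negative values of all members, -1.01 ± 0.40 (adjusted p = 0.164, edgeR), from 2.13, 3.43, 2.20 and 3.35 CPM in Sep and 1.28, 1.54, 2.44 and 0.257 CPM in Adh libraries. The fractions overlapped, since Adh replicate 3 lay within the range of Sep. At the upper limit given above, mouse reads would make up a large part of the Adh counts of NDUFV2, but their actual share was not measured. NDUFA10, an accessory subunit of the membrane arm, was also level, at 79.8 to 92.1 CPM in Sep and 81 to 92.8 CPM in Adh libraries.

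**Figure D3:**
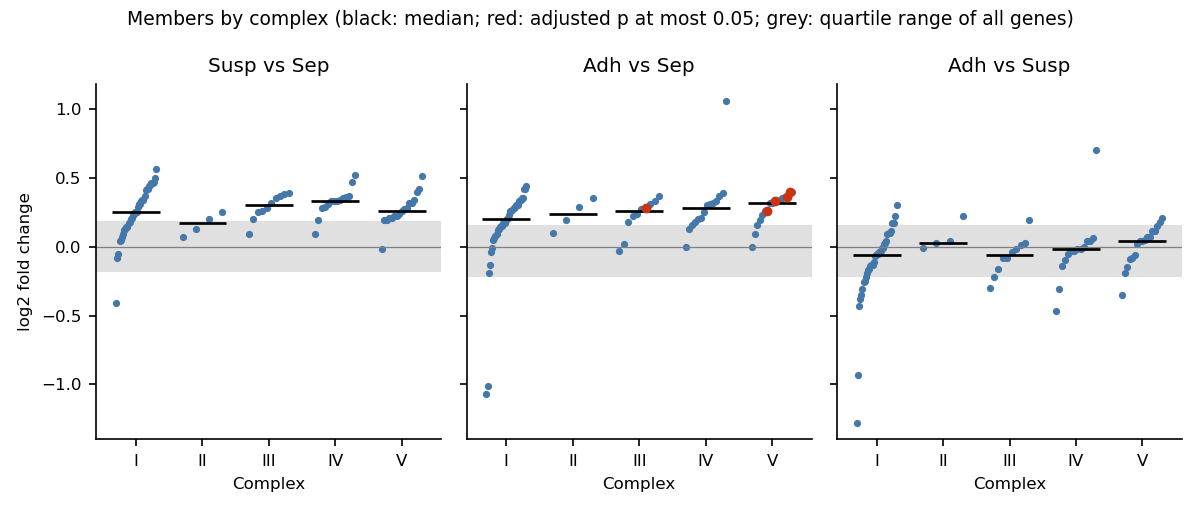
Each point is 1 tested member, placed by its log2 fold change within its complex, with the median of each complex as a line and the range between the quartiles of all tested genes in grey. Against Sep the medians of all complexes lie above 0 for Susp (0.17 to 0.33) and Adh (0.20 to 0.32), the 5 red points passed an adjusted p of 0.05, and for Adh against Susp the medians lie between -0.06 and 0.04.

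For Susp against Sep cells, a comparison that shares the Sep libraries with the one above, the median log2 fold change over the members was 0.28, or 1.21-fold higher, and 77 of 81 members were above 0 (95.1%, against 49.2% of all tested genes). In 20 members every Susp library was above every Sep library, against 5.5% of all tested genes, and in 0 members every Susp library was below, against 5.85%. In edgeR 0 members were called (0.731% of all tested genes were) or passed an adjusted p of 0.05 at any fold (1.02%), 38 had an unadjusted p under 0.05, all upward (9.32% of all tested genes), and DESeq2 passed 4 (3.02%). Without Susp replicate 2 the median was 0.14, 72 members were above 0 (48.0% of all tested genes) and 20 were still without overlap, against 6.59% of all tested genes. Then too 0 members passed an adjusted p of 0.05 in edgeR (1.18% of all tested genes did), and 19 had an unadjusted p under 0.05 (11.2%), while 2 passed without Susp replicate 1. With replicate number as a term in the model and all libraries, 10 members passed (3.86% of all tested genes). By complex the medians with and without Susp replicate 2 were 0.25 and 0.11 in complex I, 0.17 and 0.08 in II, 0.30 and 0.16 in III, 0.33 and 0.16 in IV, and 0.26 and 0.13 in V.

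The largest positive values in Susp against Sep cells were those of NDUFA11 (0.56 ± 0.21), COX5B (0.52 ± 0.25), ATP5D (0.51 ± 0.29) and NDUFA2 (0.50 ± 0.16), of which none passed in the model without a replicate term (adjusted p from 0.148 to 0.365, edgeR). Without Susp replicate 2 they were 0.35, 0.26, 0.26 and 0.32, and without Sep replicate 1 they were 0.45, 0.34, 0.30 and 0.41. COX5B, a zinc-binding subunit of complex IV, was read at 41.7, 77.1, 77.7 and 85.3 CPM in Sep and 58.3, 150, 88.2 and 108 CPM in Susp libraries, and ATP5D, the delta subunit of the ATP synthase, at 42.0, 87.2, 80.1 and 117 CPM in Sep and 65.8, 170, 108 and 120 CPM in Susp libraries. In both genes replicate 1 was the lowest library of each fraction and replicate 2 the highest of Susp. NDUFS1 (-0.05 ± 0.11) and ATP5S (-0.02 ± 0.10) were the only members at 10 CPM or more below 0. NDUFS1 has the longest transcript of the members, 11660 bases, and was lower in Susp replicate 2 (88.6 CPM) than in the other Susp libraries (115 to 121 CPM).

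Between Adh and Susp cells, the 2 fractions of the same coculture, values of the members lay on both sides of 0. The median log2 fold change was -0.03 with 33 of 81 members above 0 (40.7%, against 49.1% of all tested genes). Without Susp replicate 2 it was 0.10 with 64 above 0 (79.0%, against 50.6%). With all libraries and the GC and length correction described below it was 0.08 with 55 above 0, beside a median of 0.04 for all genes. The sign of the median thus rested on 1 library and on the processing. In edgeR 0 members were called (0.778% of all tested genes were) or passed an adjusted p of 0.05 (0.941%), 6 had an unadjusted p under 0.05, against 18.0% of all tested genes, and DESeq2 passed 1 (3.97%). The number with an unadjusted p under 0.05 was 21 without Susp replicate 2 (18.0% of all tested genes). With replicate number as a term in the model, 1 member passed an adjusted p of 0.05 (5.33%), or 20 without that library as well (14.6%). In 2 members every Adh library was above every Susp library (5.61% of all tested genes), and in 2 every Adh library was below (5.84%). These counts were 16 (8.78% of all tested genes) and 2 (9.26%) without Susp replicate 2. With all libraries, those above were UQCRC2 and NDUFA5. NDUFA5, an accessory subunit of complex I, was read at 98.5, 99.0, 80.2 and 92.8 CPM in Susp and 111, 104, 132 and 111 CPM in Adh libraries (0.30 ± 0.12, adjusted p = 0.212, edgeR), and SDHD (0.22 ± 0.11) and ATP5C1 (0.21 ± 0.10) followed it. These 3 were at 0.35, 0.34 and 0.31 without Susp replicate 2.

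With all libraries, those below were NDUFA13 and NDUFA4L2, both at low counts. NDUFA13, a complex I subunit also known as GRIM-19, was chosen after its values were seen. It was read at 1.53, 2.34, 1.69 and 2.35 CPM in Susp and 0.902, 0.867, 0.514 and 0.898 CPM in Adh libraries, with 1.5 to 1.92 CPM in Sep, and its Adh libraries were below all others. Its log2 fold change in Adh against Susp cells was -1.28 ± 0.32 (adjusted p = 0.0659, edgeR; 0.0311 by DESeq2, where it was called). Among members at 10 CPM or more the lowest values were those of NDUFA11 (-0.43 ± 0.21), NDUFS7 (-0.38 ± 0.33), ATP5D (-0.35 ± 0.29) and NDUFV1 (-0.35 ± 0.14). These values moved when single libraries were left out. Without Susp replicate 2 they were -0.21, -0.22, -0.10 and -0.20, without Adh replicate 1 they were -0.33, -0.13, -0.19 and -0.28, and after a correction for GC content and length, described below, they were -0.05, 0.05, 0.19 and -0.05. The first 3 of these overlapped between the fractions, and so did NDUFV1, at 102 to 156 CPM in Susp and 83.4 to 111 CPM in Adh libraries.

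Part of the spread between libraries followed the make-up of the transcripts. The 81 members have short transcripts, with a median of 857 bases against 3138 bases for all tested genes, and a GC content from 34.6% to 69.5%. In Susp replicate 2, 80 of 81 members were above the mean of the other 3 Susp libraries, by a median of 0.50 on the log2 scale, and over members this difference correlated with log2 length at r = -0.561. In the replicate 1 libraries of Sep, Susp and Adh the difference from the other 3 libraries of the fraction correlated with GC content at r = -0.649, -0.586 and -0.589. In Sep and Adh replicates 2 and 4 it correlated at r between 0.492 and 0.578. These r values describe 81 genes that share each library, and the same signs were found over 12773 tested genes. On average over the 3 fractions, replicate 1 was lower by 1.19 (log2) for NDUFS7, 66.9% GC, by 0.95 for ATP5D, 69.5% GC, and by 0.77 for NDUFB7, 64.9% GC, whereas NDUFB5, 39.8% GC, was higher by 0.19. The 19 members with at least 55% GC had a median of 0.18 in Adh against Sep cells and the other 62 a median of 0.28. After a correction of each library for GC content and length, chosen after seeing the data, the medians were 0.28 in Adh against Sep, 0.19 in Susp against Sep and 0.08 in Adh against Susp cells, beside 0.06, 0.01 and 0.04 for all genes, and 44 members passed an adjusted p of 0.05 between Adh and Sep cells, all upward (15.5% of all tested genes passed).

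**Figure D4:**
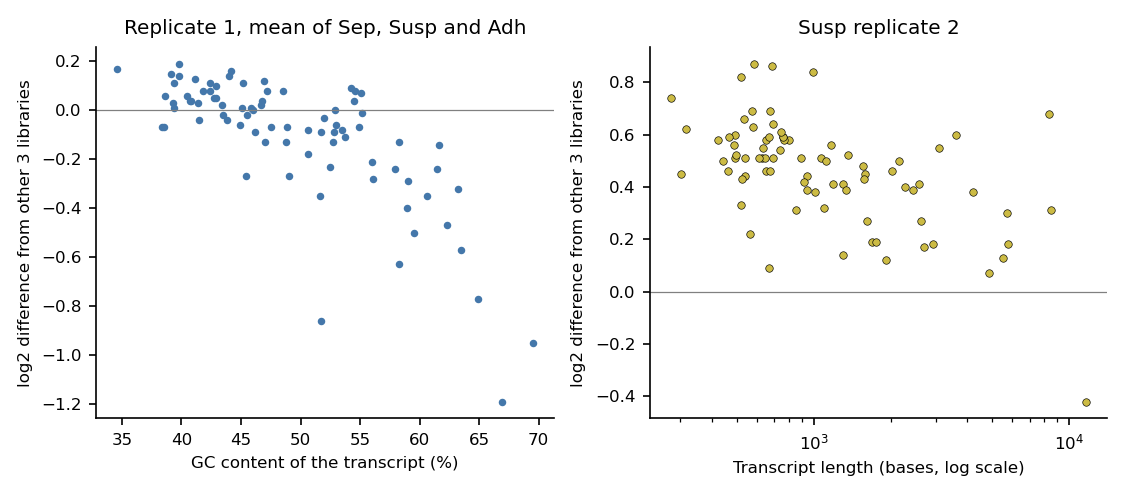
Each point is 1 tested member, and the vertical axes give the log2 difference of a library from the mean of the other 3 of its fraction, on the left averaged over the replicate 1 libraries and set against GC content, on the right for Susp replicate 2 against transcript length on a log axis. On the left the points below -0.5 are at 51.7% GC or more, and on the right all points but NDUFS1 lie above 0.

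Levels differed widely between subunits. As RPKM (CPM per kilobase of canonical transcript), the mean over the 3 fractions ran from 1.05 to 1777 over the 75 tested members with under 60% of the transcript covered by exons of other genes, with a median of 84.9. The 6 members with at least 60% covered had a median of 7.08 RPKM and a maximum of 76.5. They were NDUFV2 (90% covered, 2.64 RPKM), NDUFA13 (83.9%, 2.86 RPKM), NDUFA7 (77.9%, 1.74 RPKM), NDUFB8 (72.0%, 11.3 RPKM), NDUFA11 (68.2%, 25.5 RPKM) and ATP5O (63.8%, 76.5 RPKM). NDUFV2, described above, belongs to the core and NDUFA13 is needed for assembly of complex I, yet over the 12 libraries only 362 and 243 fragments were counted for them. For each of the 6 the longest overlap on the same strand is with a gene that held few or no counts itself, 44 fragments for that over NDUFA13, 7 for that over NDUFA7 and 0 for the others. The part of these overlaps in the levels was not tested, and the levels of these 6 genes are uncertain. NDUFV2, whose mouse counts in Adh libraries were 549 times its human counts on average, was at 2.13 to 3.43 CPM in Sep and 0.257 to 2.44 CPM in Adh libraries. Pseudogenes are a further limit: 44 members share their name with 157 annotated pseudogenes of the table, COX6C with 17 and NDUFA5 and NDUFB4 with 12 each, and only uniquely placed reads were counted.

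**Figure D5:**
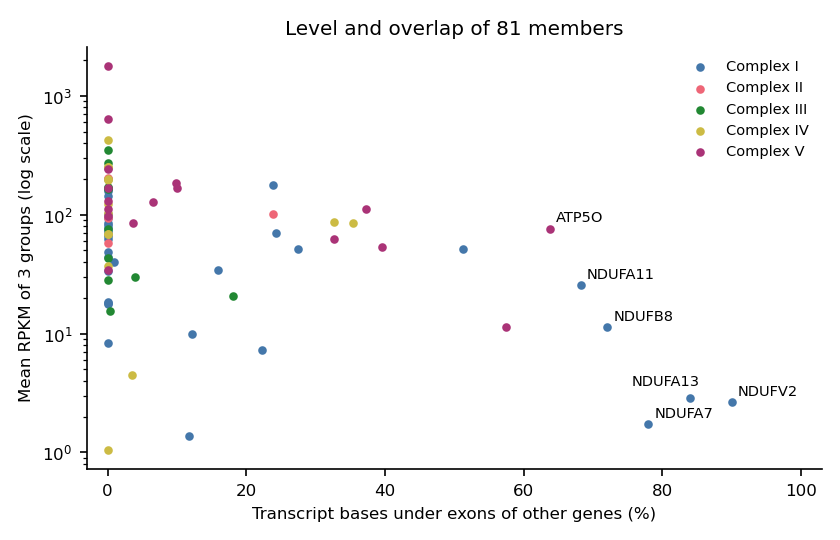
Each point is 1 of 81 tested members, with the percentage of its transcript under exons of other genes on the horizontal axis and its mean RPKM on a log vertical axis. The 6 named points to the right of 60% have a median of 7.08 RPKM, and the other 75 points a median of 84.9 RPKM.

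Where a subunit has paralogs, 1 form held most of the RPKM, and it was the same form in all 3 fractions. COX4I1 was at 171, 218 and 215 RPKM in Sep, Susp and Adh cells, and COX4I2, the form of lung and low oxygen, at 0.745, 0.917 and 1.5 RPKM. COX6A1 was at 73.8, 93.2 and 91.7 RPKM, and COX6A2, the heart and muscle form, had 0 counts in all 12 libraries, which allows up to 0.0195 CPM (3 counts over the libraries together). COX6B1 was at 165, 208 and 217 RPKM, and COX6B2, the testis form, at group means of no more than 0.113 RPKM. COX7A2 (217, 264 and 272 RPKM) and COX7A2L (33.9, 38.6 and 37.7 RPKM), which joins complexes III and IV, stood against at most 0.189 RPKM for the muscle form COX7A1. COX7B was at 57.6, 74.5 and 74.3 RPKM and COX7B2 at 0 counts. COX8A was at 76.0, 92.5 and 86.3 RPKM and COX8C at no more than 0.104 RPKM.

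NDUFA4, now counted to complex IV, was at 97.9, 104 and 107 RPKM. Its paralog NDUFA4L2, a target of the hypoxia pathway, was at 3.95, 5.5 and 4 RPKM. In CPM, NDUFA4L2 was at 4.91, 6.52, 4.83 and 4.50 in Susp and 3.16, 4.24, 3.21 and 4.49 in Adh libraries, and at 2.60 to 5.82 in Sep. The Adh libraries were just below the Susp libraries and within the range of Sep. ATP5G1, ATP5G2 and ATP5G3 encode the same mature c subunit of the ATP synthase ring. ATP5G2 was the highest in each fraction (586, 710 and 624 RPKM), above ATP5G1 (115, 143 and 137 RPKM) and ATP5G3 (72.8, 90.7 and 93.2 RPKM). The order of the last 2 rests on the canonical lengths, 646 bases for ATP5G1 and 2587 bases for ATP5G3. In CPM, ATP5G3 was above ATP5G1 (188 against 74.1 in Sep and 241 against 88.5 in Adh cells). ATP5G3 came nearest to the threshold in Adh against Sep cells, at 183, 182, 201 and 188 CPM in Sep and 236, 245, 245 and 240 CPM in Adh libraries (0.36 ± 0.10, adjusted p = 0.0505, edgeR), whereas ATP5G2 was at 0.09 ± 0.11 and ATP5G1 at 0.26 ± 0.13.

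Of the 8 members that were not tested, COX6A2, COX6B2, COX7A1, COX7B2 and COX8C are the tissue forms above. ATP5EP2 and ATP5L2 are copies of ATP5E and ATP5L, and ATP5J2-PTCD1 is a read-through gene, and these 3 did not exceed 0.301 CPM in any library.

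Other genes of the pathway, named in lists, were read beside the members. The 5 nuclear genes of the pathway whose symbols fall outside the naming scheme (NDUFAB1, USMG5, C14orf2, ATPIF1 and CYCS) had a median log2 fold change of 0.34 in Adh against Sep cells and 0.30 in Susp against Sep cells, or 0.15 without Susp replicate 2, with all 5 above 0 in both. In Adh against Sep cells 1 of the 5 passed an adjusted p of 0.05, or 3 without that library (3.41% and 11.9% of all tested genes). CYCS, cytochrome c, rose in Adh cells, from 398 ± 48.6 CPM in Sep to 533 ± 38.6 CPM (SD, n = 4; log2 fold change 0.42 ± 0.10, adjusted p = 0.0287, edgeR). The 50 assembly factors tested, of 52 listed, had medians of 0.14 and 0.12 in the same comparisons, or 0.15 and 0.04 without Susp replicate 2. In Adh against Sep cells 4 of them passed without that library, all upward (11.9% of all tested genes passed in either direction, 5.51% upward). With all libraries 1 rose (3.41% and 1.11%), so these counts do not set the assembly factors apart from other genes. It was SDHAF3, a factor for the iron-sulfur subunit of complex II (14 ± 2.39 CPM in Sep and 23.0 ± 5.53 CPM in Adh cells, n = 4; 0.71 ± 0.18, adjusted p = 0.0407, edgeR). Of 15 tested regulators of subunit and mitochondrial genes, of 16 listed, with a median of 0.04 in Adh against Sep cells, SLIRP, which binds mitochondrial mRNA, rose (0.47 ± 0.11, adjusted p = 0.0327, edgeR) and 0 fell, while 2 rose without Susp replicate 2. Of all tested genes 1.11% rose with all libraries and 5.51% without that library. NRF1 was at 32.9 ± 3.74 CPM in Sep and 36.7 ± 4.04 CPM in Adh cells, GABPA at 131 ± 18.3 and 122 ± 5.76 CPM, YY1 at 196 ± 15.3 and 197 ± 15.3 CPM, and PPARGC1B at 36.4 ± 6.74 and 35.9 ± 8.42 CPM (SD, n = 4), none past an adjusted p of 0.05 in edgeR. PPARGC1A, too low to test, was at no more than 0.403 CPM in any library.

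The subunits encoded by the mitochondrial genome moved otherwise. All 13 were called lower in Adh cells against both other fractions. Of all tested genes 0.778% were called in either direction against Susp and 2.40% against Sep cells. The median log2 fold changes of the 13 were -1.64 against Susp and -1.62 against Sep cells, and their median between Susp and Sep cells was 0.06. Mitochondrial genes took 1.56% to 2.02% of the counts in Sep, 1.31% to 2.17% in Susp and 0.362% to 0.683% in Adh libraries, and with these genes left out of the scaling the medians of the nuclear members were 0.26 in Adh against Sep, 0.27 in Susp against Sep and -0.01 in Adh against Susp cells.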

How the data were processed

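RNA-seq of REC-1 cells in 3 fractions (Sep, Susp and Adh, 4 libraries each) was used. The authors divided read pairs by species with Xenome, aligned them to GRCh38 or GRCm38 with STAR 2.5.1b, keeping uniquely placed reads, and counted fragments per gene with featureCounts (Subread 1.5.2). They analysed them with edgeR 3.22.5. The strand setting of the counting and the libraries to which the division was applied are not given in the sources used here. The deposited values are raw counts per gene, neither normalized nor filtered. The 20 other per-sample columns of the tables were not used.

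Counts of all 12 libraries were fitted together in R 4.3.3 with edgeR 4.0.16 (filterByExpr, TMM, quasi-likelihood F-test, group means as terms) and p-values were adjusted over all tested genes by the Benjamini-Hochberg method. A gene was called where the adjusted p did not exceed 0.05 and it changed 1.5-fold or more. log2 CPM used a prior count of 2. Lengths, GC content and positions came from the canonical transcripts of GENCODE release 44, of the build of the counts. SDs and SEs include the spread between libraries, and the limit given for genes at 0 counts covers counting error only. At these depths, counting error limits members of a few CPM or less.

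Members and lists were chosen with earlier results of these data known. Named members are the 4 highest and 4 lowest log2 fold changes of each comparison among members at 10 CPM or more in 1 fraction, members called, and fixed sets of paralogs and of catalytic or cofactor subunits. Others were named after their values were seen, and 1 member of these sets is not reported here by name. Alternatives were DESeq2 1.42.0, upper-quartile scaling, other filters, no mitochondrial genes, the 2 fractions compared alone, a replicate block, and each library left out. A GC and length correction (loess span 0.3) was added after seeing the data. The code was tested on simulated counts for Adh against Susp (12692 genes), where 84 of 100 genes changed 1.75-fold were called. Smaller changes and a library that stands apart were not simulated. The test therefore does not show how often changes as small as those of the members would be found.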

Additional observations from a re-analysis of the deposited data

Results flagged for a closer look

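Among 4 libraries of a fraction, a value was set apart where its gap to the nearest other library divided by the range exceeded Dixon's critical value for 4 values. This was applied to 132 groups of 4 libraries, of which chance sets apart about 1 in 20, and the groups share libraries. It found 12, of which 11 were Susp replicate 2, higher than the other Susp libraries. In that library the mean log2 CPM was 6.46 over all members, 5.70 over complex I, 7.47 over complex II, 7 over complex III and 7.56 over complex V, and the CPM was 77.6 for ATP5O, 221 for COX4I1, 134 for COX6B1, 222 for COX7B, 267 for NDUFA4 and 262 for SDHB. The remaining one was NDUFA13 in Adh replicate 3, at 0.514 CPM and lower than the other Adh libraries. The part of transcript length, GC content and RNA quality in the position of Susp replicate 2 was not tested.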

How the results depend on the processing

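With a 1.5-fold minimum, 0 members were called in every comparison and alternative run, except NDUFA13 in Adh against Susp cells, the 1 member called with the replicate block and with DESeq2, and 5 in Adh against Sep cells with no fold minimum. Median log2 fold changes ranged over libraries left out from 0.23 to 0.27 (Adh against Sep), 0.14 to 0.33 (Susp against Sep) and -0.07 to 0.10 (Adh against Susp).

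Members at an adjusted p of at most 0.05 at any fold moved most. The share of all tested genes that passed follows each count in parentheses. In Adh against Sep cells there were 5 (3.41%), and 9 with the replicate block (5.65%), 12 with DESeq2 (7.57%), 1 with upper-quartile scaling (3.28%), 9 with no low-count filter (2.86%), 23 with the 2 fractions alone (8.22%), 44 with the GC and length correction (15.5%), 46 with that and the block (17.1%), 57 with it and without Susp replicate 2 (22.3%), 53 with the block and without that library (22.1%), and 0 to 31 over libraries left out. In Susp against Sep cells there were 0 (1.02%), and 10 with the block (3.86%), 4 with DESeq2 (3.02%), 18 with no filter (2.49%), 10 with the correction (3.68%), 12 with correction and block (4.52%), 9 with the correction (3.33%) and 11 with the block (5.59%) without Susp replicate 2, and 0 to 2 over libraries left out. In Adh against Susp cells there were 0 (0.941%), and 1 each with the block (5.33%), DESeq2 (3.97%) and the correction (3.84%), 2 with correction and block (4.89%), 14 with the correction (6.17%) and 20 with the block (14.6%) without Susp replicate 2, and 0 to 0 over libraries left out. The labels do not say that a replicate number marks a shared experiment, though the sample names share a number between the fractions. Deviations from group means correlated with r over 0.1 for 1 of 4 numbers in Adh and Susp, 1 of 4 in Susp and Sep and 3 of 4 in Adh and Sep. Replicate 1 was among them each time, with r = 0.312, 0.321 and 0.308. The block was kept as an alternative, and counts without it may miss members if the numbers mark shared experiments. Those passed with the block in Susp against Sep cells include NDUFV1 (adjusted p = 0.0226, edgeR), COX5B (0.0297), NDUFA2 (0.0369), CYC1 (0.0401), ATP5D (0.041) and ATP5B (0.0446), and NDUFA11 was at 0.0625.

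Signs turned both for values near 0 and for some of the lowest values of Adh against Susp cells. With the correction, ATP5D in Adh against Susp was 0.19 (0.19 with the block, 0.25 without Susp replicate 2) and NDUFS7 0.05, 0.04 and 0.06, NDUFA11 was 0.02 without that library, and in Adh against Sep NDUFS7 was 0.10, 0.11 and 0.12 and NDUFA10 0.04 in all 3. In Susp against Sep the correction gave ATP5S 0.04 with and without the block, and NDUFS1 0.20 with and without the block and 0.14 without Susp replicate 2. Without Susp replicate 2, there, NDUFS1 was 0.03 and NDUFA4 -0.05, with the block also 0.03 and -0.06, and NDUFA4 with the correction -0.01. Over libraries left out, the ranges that crossed 0 were -0.27 to 0.21 (NDUFS7), -0.10 to 0.03 (UQCR11), -0.05 to 0.02 (NDUFA10), -0.01 to 0.15 (NDUFV1), -0.13 to 0.31 (NDUFA4L2) and -0.06 to 0.03 (ATP5S) in Adh against Sep, and -0.08 to 0.01 (ATP5S), -0.09 to 0.03 (NDUFS1), -0.05 to 0.14 (NDUFA4) and -0.07 to 0.78 (COX4I2) in Susp against Sep. The cause was not tested. Depth limits members of a few CPM.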
